A study of Homo sapiens with 4 samples.

Results

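Histone demethylases, the TET dioxygenases and their oxygenase relatives remove methyl groups from histones, DNA and RNA, or hydroxylate proteins. The 34 genes described here were picked by symbol as oxygen-dependent demethylases and JmjC relatives. Each symbol matched 1 of the 64252 gene IDs in the count table, and all 34 passed the filter on low counts that left 19897 IDs for testing. Total RNA was sequenced from Jurkat, an established line of human T-ALL (T cell acute lymphoblastic leukemia). In the control group, sh-Scb, the cells carried a scrambled short hairpin RNA, and in the knockdown group, sh-SOX4, a hairpin directed at SOX4, with 2 libraries in each group. SOX4 is a transcription factor of early lymphocyte development. The sources used here do not give the position that the hairpin targets, the time of harvest, or the number of clones or cultures behind a group.

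Most of these enzymes share a chemistry. JmjC demethylases, TET and AlkB proteins use iron, oxygen and 2-oxoglutarate to hydroxylate a methyl group, which then leaves, while KDM1A and KDM1B use flavin and oxygen. JmjC enzymes that hydroxylate a protein side chain leave the hydroxyl in place. Succinate, fumarate and 2-hydroxyglutarate compete with 2-oxoglutarate, so the cell's metabolism bears on the activity of these enzymes as well as their amount, and KDM6A and TET2 are known tumor suppressors of blood cancers. Only transcript levels were measured here.

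The 4 libraries summed to between 29093287 and 36636219 counts. SOX4 itself was at 271 and 277 CPM (read counts relative to the TMM-scaled library size) in the sh-Scb libraries and at 191 and 199 CPM in the sh-SOX4 libraries. This left 71.1% of the control level (log2 fold change -0.49, SE 0.044, adjusted p = 1.24e-05), so the comparison is between a control and a partial knockdown. All 11 T cell and T-ALL markers listed were measured, with PTPRC at 492 and LCK at 411 CPM in sh-Scb. Of them 7 rose and 2 fell, where 23.2% of all tested IDs were called higher and 20.9% lower. The summed level of the 11 was 2173 and 2191 CPM in sh-Scb and 2824 and 2812 CPM in sh-SOX4. Among markers of other cell types LYZ and COL1A2 had 0 counts in every library, and the myeloid, NK and epithelial lists summed to between 0.767 and 2.2 CPM. The 5 B cell markers summed to 68.8 and 66.9 CPM in sh-Scb and to at most 16.7 CPM in sh-SOX4. CD79A, which made up most of that, fell from 67.2 and 65.9 to 13.1 and 13.4 CPM, and CD79B rose from 0.476 and 0.365 to 2.11 and 0.907 CPM. The 4 fibroblast markers summed to 26.8 and 29.1 against 19.5 and 19.7 CPM, mostly COL1A1. The part of these shifts in the results on the 34 genes was not tested. In bulk RNA, fewer cells of a kind and less RNA per cell cannot be told apart.

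Across the 34 genes, the JmjC histone demethylases, KDM8 not counted among them, went down or did not pass the test. The 7 JmjC-only oxygenases among the 34 and ALKBH1, ALKBH2 and ALKBH3 of the AlkB family went up. The quasi-likelihood test of edgeR, with p-values adjusted by Benjamini-Hochberg over all tested IDs, called 11 genes higher and 11 lower in sh-SOX4, and 12 did not pass the threshold of 0.05. The background was high: of all tested IDs 44.1% were called, 23.2% higher and 20.9% lower. The libraries of the groups did not overlap for 29 of the 34 genes, against 72.9% of all tested IDs. The median log2 fold change of the 34 was 0.00, against -0.01 for all tested IDs. The calls fell unevenly over the families. All 7 JmjC-only oxygenases among the 34 rose, while of 19 genes in the histone demethylase families, JARID2 included, 9 fell and 0 rose. KDM8, which is also described as a histone demethylase, is counted with the 7, so the 0 depends on this grouping. At an unadjusted p under 0.05, edgeR and limma-voom each had 1 of those 19 higher, KDM2A, and DESeq2 had 0. At an adjusted p under 0.05, DESeq2 and limma-voom also called 0 of the 19 higher. After a correction for GC content and transcript length 3 of the 19 were called higher, KDM2A, KDM5A and PHF2, and 6 lower. Over all IDs, that correction took the share of calls that were higher from 52.5% to 58.0%. With scaling to library totals alone, 8 of the 34 were called higher and 13 lower, and 4 of the 7 JmjC-only genes were called. Of the calls among the 34, 38.1% were then higher in place of equal numbers each way. Over all IDs the share shifted likewise, to 40.8% in place of 52.5%.

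**Figure D1:**
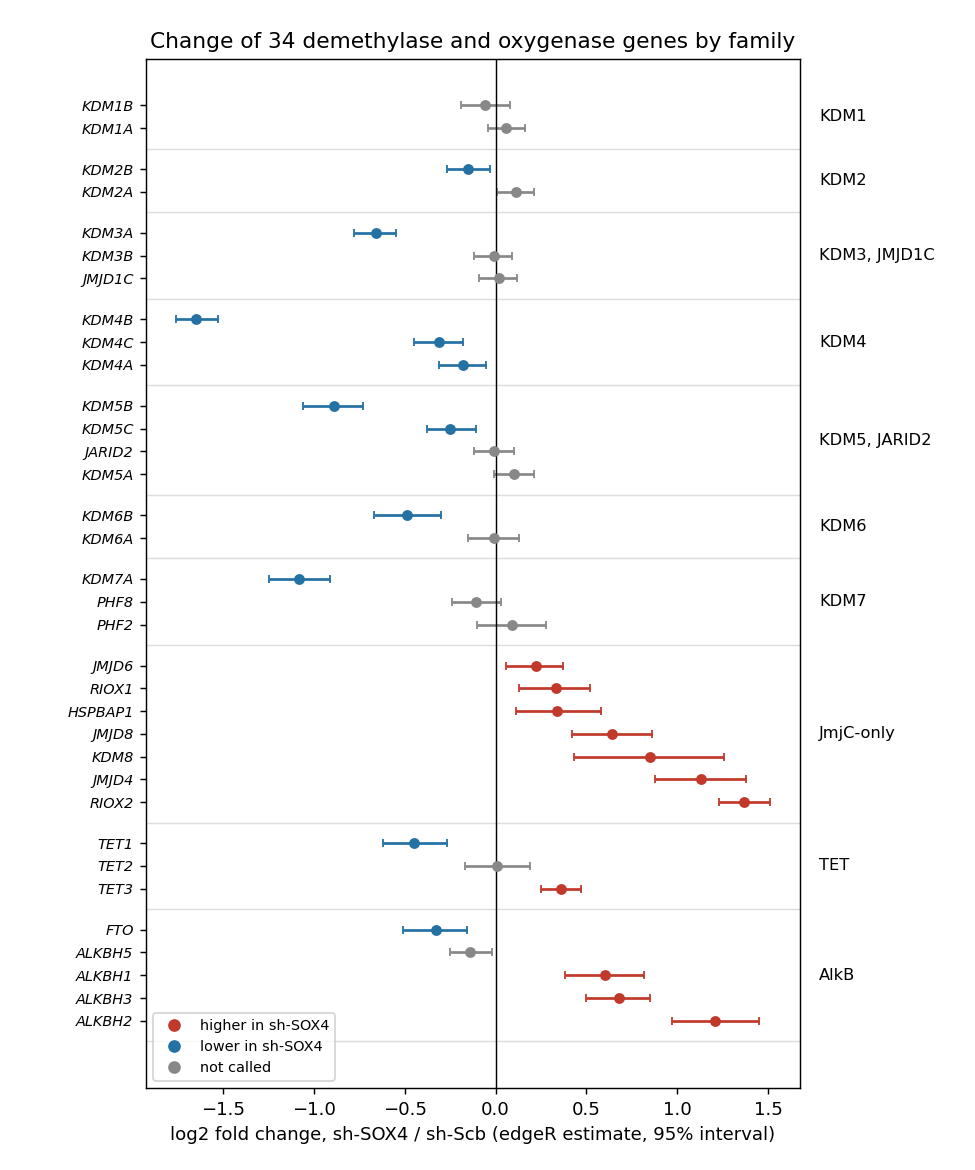
Log2 fold change of each of the 34 genes between sh-SOX4 and sh-Scb (horizontal axis, edgeR estimate with its 95% interval, 2 libraries per group), arranged by family, with red for genes called higher, blue for genes called lower and grey for genes that did not pass. KDM4B lies farthest to the left at -1.65 and RIOX2 farthest to the right at 1.37, and the 7 JmjC-only genes all lie to the right of 0.

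Sequences upstream of 6 of the genes are shown so that 3 that fell (KDM4B, KDM7A and TET1) can be set beside 3 that rose (ALKBH2, KDM8 and TET3). Sequences are from RefSeq (GRCh38.p14), 5′ to 3′ on the gene's strand, limited to a run before a RefSeq start that lies in no annotated exon. Capitals mark ACGTG and GCGTG on either strand, the core letters of the element bound by hypoxia-inducible factors. CACGTG, the E-box bound by MYC and MAX, holds ACGTG on both strands, so that 1 such site counts as 2 matches. The positions are chr19:4968863-4969112 (+ strand) for KDM4B, chr7:140177036-140177183 (- strand) for KDM7A, chr10:68560087-68560336 (+ strand) for TET1, chr12:109093632-109093722 (- strand) for ALKBH2, chr16:27203276-27203494 (+ strand) for KDM8 and chr2:73984660-73984909 (+ strand) for TET3.
KDM4B: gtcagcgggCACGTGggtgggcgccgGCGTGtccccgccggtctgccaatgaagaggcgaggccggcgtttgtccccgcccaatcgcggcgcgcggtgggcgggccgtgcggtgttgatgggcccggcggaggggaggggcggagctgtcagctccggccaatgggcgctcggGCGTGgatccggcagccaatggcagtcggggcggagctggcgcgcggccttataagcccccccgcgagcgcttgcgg
KDM7A: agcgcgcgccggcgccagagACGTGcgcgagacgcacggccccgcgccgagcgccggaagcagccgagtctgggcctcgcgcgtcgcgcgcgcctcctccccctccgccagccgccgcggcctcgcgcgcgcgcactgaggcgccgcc
TET1: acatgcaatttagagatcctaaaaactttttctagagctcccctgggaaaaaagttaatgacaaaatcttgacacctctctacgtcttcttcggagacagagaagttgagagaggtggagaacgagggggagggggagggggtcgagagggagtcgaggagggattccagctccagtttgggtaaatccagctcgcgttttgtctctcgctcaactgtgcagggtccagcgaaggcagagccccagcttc
ALKBH2: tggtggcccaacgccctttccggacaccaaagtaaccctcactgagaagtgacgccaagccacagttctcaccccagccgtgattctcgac
KDM8: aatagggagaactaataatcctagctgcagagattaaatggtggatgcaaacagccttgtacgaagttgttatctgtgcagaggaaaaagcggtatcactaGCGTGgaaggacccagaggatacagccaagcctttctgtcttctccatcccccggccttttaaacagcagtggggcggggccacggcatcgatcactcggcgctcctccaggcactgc
TET3: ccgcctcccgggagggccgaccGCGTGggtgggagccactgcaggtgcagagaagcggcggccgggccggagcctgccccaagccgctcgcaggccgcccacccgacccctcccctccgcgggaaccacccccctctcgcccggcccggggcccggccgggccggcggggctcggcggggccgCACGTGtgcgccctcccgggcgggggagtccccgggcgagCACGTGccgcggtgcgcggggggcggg

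The KDM4B stretch held 2 ACGTG and 2 GCGTG matches, the TET3 stretch 4 and 1, KDM7A 1 ACGTG, KDM8 1 GCGTG, and those of TET1 and ALKBH2 neither. The stretches run from 91 to 250 bases, so these numbers cannot be compared between genes, and 1 GCGTG lies in the rest of the ALKBH2 window, 1 in that of KDM7A and 1 in another window of TET1. Windows of 300 bases around the start were found for 31 of the 34 genes, and those of JMJD6, RIOX1 and RIOX2 were missing. ACGTG or GCGTG stood in at least 1 window of 25 of the 31 (80.6%), against 52.4% of 27305 genes with a window. They were in 7 of 8 genes that rose, 9 of 11 that fell and 9 of 12 that did not pass. ACGTG was in 11 of the 31 (35.5%), against 24.9% of all genes, GCGTG in 23 (74.2%), against 40.6%, and CACGTG in 7 (22.6%), against 8.77%. The 27305 genes were not limited to those that passed the filter on low counts, as all 34 genes did. The 31 genes had 46 windows, against 35116 for the 27305, so shares by gene also depend on the number of windows. By window, ACGTG or GCGTG stood in 31 of the 46, against 48.4% of all windows. All of these are matches of letters, and no binding was measured.

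The KDM4 enzymes take methyl groups from trimethylated lysine 9 and lysine 36 of histone H3, and KDM4A, KDM4B and KDM4C were called lower in sh-SOX4. KDM4D, a further KDM4 gene outside the 34, was at 8.38 and 9.10 CPM in sh-Scb and 6.12 and 8.23 CPM in sh-SOX4 and did not pass (log2 fold change -0.29, adjusted p = 0.223). KDM4B (ENSG00000127663, chromosome 19, 4969113 to 5153595 on GRCh38), a gene known to be induced in low oxygen, was at 149 and 154 CPM in the sh-Scb libraries and at 48.3 and 48.2 CPM in the sh-SOX4 libraries. The groups lay far apart, and replicates differed little. Its log2 fold change was -1.65 (SE 0.051, adjusted p = 2.46e-08), which left 31.9% of the control level, and only 2.43% of tested IDs were at or below that value. KDM4C, also known to be induced in low oxygen, was at 70.9 and 71.6 CPM in sh-Scb and 55.6 and 59.1 CPM in sh-SOX4, a fall to 80.4% (adjusted p = 0.00182). KDM4A was at 66.9 and 66.0 CPM against 60.2 and 57.2 CPM, a log2 fold change of -0.18 with an adjusted p of 0.0326. The KDM4A call was lost under 8 of 14 other settings, among them leaving out any 1 of the 4 libraries, and 48.5% of its exonic bases lie in other annotated genes.

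Because levels of different genes can be set side by side only per length, CPM was divided by the kilobases of annotated exon. On that scale KDM4A, KDM4B and KDM4C, without KDM4D, summed to 29.9 and 30.2 CPM per kb in the sh-Scb libraries and to a mean of 20.2 in the sh-SOX4 libraries, 67.1% of the control. KDM4B made up 34.2% of that sum in sh-Scb and 16.3% in sh-SOX4, while the share of KDM4A went from 42.8% to 56.2%. KDM4B has 14716 bases of annotated exon and a longest transcript of 5703 bases. Its level in sh-Scb ranked 14 of 34 by total exon length and 4 of 34 by the longest transcript, so such shares depend on the length chosen.

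**Figure D2:**
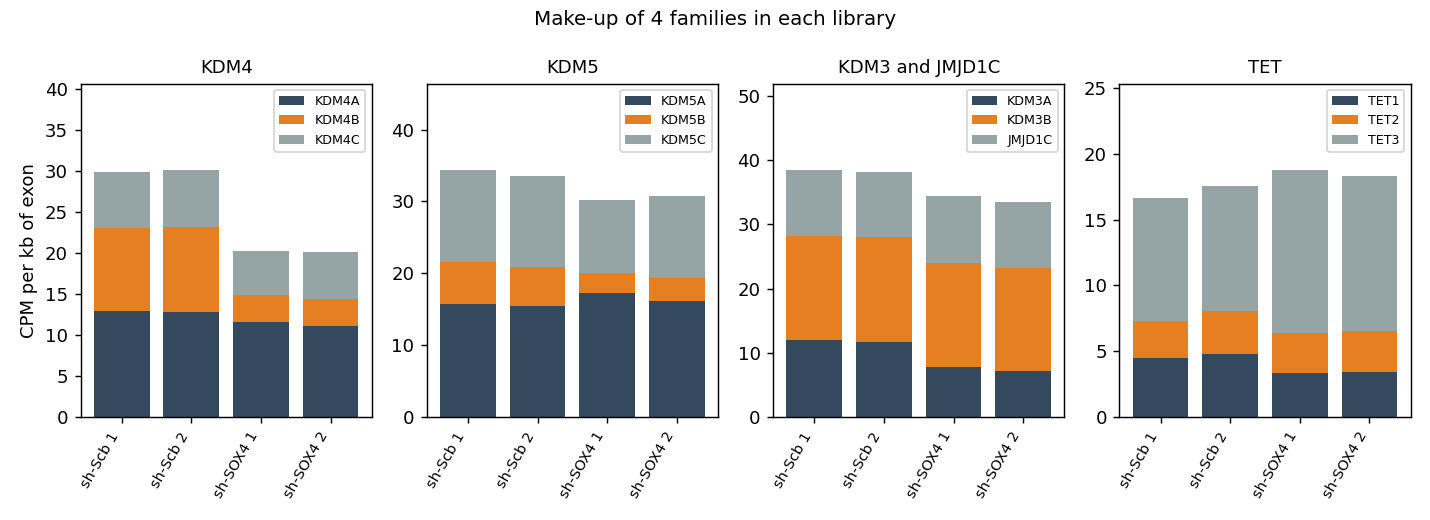
Stacked bars of CPM per kb of annotated exon in each of the 4 libraries for the members of the KDM4 (without KDM4D), KDM5, KDM3 (with JMJD1C) and TET families, each panel with its own axis from 0. The KDM4B segment shrinks in both sh-SOX4 libraries, from 10.1 and 10.4 to 3.28 and 3.27 CPM per kb, and the TET3 segment grows, from 9.31 and 9.52 to 12.4 and 11.8.

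Demethylation of mono- and dimethylated lysine 9 of histone H3 is the work of the KDM3 and KDM7 families, and among the members of each, 1 gene fell while the others did not pass. KDM7A (ENSG00000006459, chromosome 7, 140084746 to 140177035), which acts on lysine 9 and lysine 27, was at 69.3 and 67.4 CPM in sh-Scb and at 34.3 and 30.3 CPM in sh-SOX4. Its log2 fold change of -1.08 (SE 0.077, adjusted p = 2.59e-06) left 47.2% of the control level. Its relatives PHF8 and PHF2, which carry a PHD finger next to the JmjC domain as KDM7A does, had log2 fold changes of -0.11 (95% interval -0.24 to 0.03) and 0.09 (-0.10 to 0.28).

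KDM3A (ENSG00000115548, chromosome 2, 86440647 to 86492716) is a lysine 9 demethylase and a known target of hypoxia-inducible factors. It was at 159.5 and 156 CPM in the sh-Scb libraries and at 103 and 96.0 CPM in the sh-SOX4 libraries. Both sh-SOX4 values lay well under both control values, with a log2 fold change of -0.66 (SE 0.053, adjusted p = 5.47e-06). KDM3B, the closest relative of KDM3A, was at 130.2 ± 0.63 CPM in sh-Scb and 129 ± 0.753 CPM in sh-SOX4 (SD, n = 2), and its log2 fold change had a 95% interval of -0.12 to 0.09. JMJD1C, a further relative, was at 113 ± 0.939 and 115 ± 0.162 CPM (SD, n = 2), with an interval of -0.09 to 0.12. These intervals bound any change of KDM3B and JMJD1C well below the size measured for KDM3A. HR, a JmjC relative of the KDM3 genes outside the 34, fell from 9.73 and 10.1 to 7.47 and 6.52 CPM (log2 fold change -0.50, adjusted p = 0.0204).

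KDM5 enzymes erase trimethylation of lysine 4 of histone H3, a mark of active promoters. KDM5B (ENSG00000117139, chromosome 1, 202724495 to 202809470), a member often high in cancers, was at 152 and 142 CPM in sh-Scb and at 73.5 and 84.9 CPM in sh-SOX4. This fall to 53.8% of control (log2 fold change -0.89, SE 0.072, adjusted p = 1.2e-05) was far larger than the gap between its replicates. KDM5C, encoded on the X chromosome, was at 111 and 109.8 CPM against 87.7 and 98.9 CPM, with a log2 fold change of -0.25 (adjusted p = 0.00941). The KDM5C call was lost without sh-SOX4 replicate 1, in the test against a 1.2-fold change and after the correction for GC content and length, where its log2 fold change was -0.11. KDM5A, a binding partner of the retinoblastoma protein, was at 188 ± 2.36 and 201 ± 9.80 CPM (SD, n = 2) and did not pass (log2 fold change 0.10, 95% interval -0.01 to 0.21). JARID2, which has lost catalytic activity and serves Polycomb complex PRC2, was at 204 ± 8.18 CPM in sh-Scb and at 203 ± 6.86 CPM in sh-SOX4 (SD, n = 2).

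The remaining histone demethylases changed little or not detectably, KDM6B apart. KDM6B, an inducible eraser of lysine 27 trimethylation, was at 53.4 and 59.8 CPM in sh-Scb and at 38.5 and 42.4 CPM in sh-SOX4, a fall to 71.4% (adjusted p = 0.000843). After the correction for GC content and length its log2 fold change was -0.25 in place of -0.49, still past the threshold. KDM6A was at 51.9 ± 0.694 and 51.4 ± 0.78 CPM (SD, n = 2), with a 95% interval of -0.15 to 0.13 for the log2 fold change. KDM5C and KDM6A have close homologues on the Y chromosome, and the sources used here do not say how reads matching both copies were counted. KDM2A and KDM2B bind unmethylated CpG islands and act on lysine 36. KDM2B had a log2 fold change of -0.15 with an adjusted p of 0.0486, a call lost under 9 of 14 other settings and turned to 0.029 by the correction for GC content and length. KDM2A was at 149.8 ± 0.734 CPM in sh-Scb and 162 ± 3.64 CPM in sh-SOX4 (SD, n = 2) and did not pass (log2 fold change 0.11, adjusted p = 0.071).

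The flavin-dependent enzymes KDM1A and KDM1B, which erase mono- and dimethylation of lysine 4, did not pass. KDM1A was at 187 and 184 CPM in sh-Scb and at 192 and 195 CPM in sh-SOX4, with a 95% interval of -0.04 to 0.16. KDM1B was at 73.7 ± 3.12 and 70.9 ± 3.82 CPM (SD, n = 2), with an interval of -0.19 to 0.08. KDM1A works in the CoREST corepressor complex. Of 10 CoREST partner genes, grouped after their values were seen, 7 fell and 1 rose, where 20.9% of all tested IDs were lower and 23.2% higher. They were taken from 30 tested partner subunits of demethylase complexes, of which 12 fell and 6 rose, so the count depends on that grouping. HMG20B, a DNA-bending subunit, fell by 0.92 (SE 0.069), PHF21A, a reader of unmethylated lysine 4, fell by 0.58 (SE 0.054), and the scaffold genes RCOR1, RCOR2 and RCOR3 fell by 0.44, 0.81 and 0.54 on the log2 scale. HDAC2, a deacetylase, rose by 0.51 (SE 0.047), while HDAC1 had a log2 fold change of -0.01. GLYR1, the cofactor of KDM1B, rose by 0.30.

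The JmjC-only oxygenases are small proteins that carry little beside the JmjC domain, and several hydroxylate parts of the translation machinery. RIOX2 (ENSG00000170854, chromosome 3, 97941818 to 97972457), a histidine hydroxylase of ribosomal protein RPL27A and a known MYC-induced gene, was at 32.7 and 31.1 CPM in sh-Scb and at 81.6 and 83.5 CPM in sh-SOX4. The 2.58-fold rise (log2 fold change 1.37, SE 0.064, adjusted p = 1.86e-07) was the largest of the 34 genes. Of its exonic bases 27.6% overlap CRYBG3 on the opposite strand, a gene with a log2 fold change of -0.58, and the sources used here do not say whether counting used strand. RIOX1, the nucleolar histidine hydroxylase of RPL8, was at 27.3 and 30.1 CPM against 36.4 and 35.5 CPM (log2 fold change 0.33, adjusted p = 0.0121). Its call was lost with library totals, without sh-Scb replicate 1 and in the test against a 1.2-fold change.

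JMJD4 (ENSG00000081692, chromosome 1, 227730425 to 227735411), a lysine hydroxylase of the translation termination factor eRF1, was at 9.63 and 10.7 CPM in sh-Scb and at 22.2 and 22.3 CPM in sh-SOX4. It rose 2.19-fold (SE 0.11 on the log2 scale, adjusted p = 2.42e-05). SNAP47, on the opposite strand, shares 53.8% of the exonic bases of JMJD4 and did not pass (log2 fold change -0.13, adjusted p = 0.274). KDM8 (ENSG00000155666), described both as a lysine 36 demethylase and as an arginine hydroxylase, rests on the fewest counts of the 34 genes. It was counted 156 and 155 times in sh-Scb and 241 and 269 times in sh-SOX4, or 4.13 and 5.15 CPM against 7.60 and 9.04 CPM (log2 fold change 0.85, SE 0.19, adjusted p = 0.00432). The groups did not overlap, but its replicates differed by up to 1.25-fold, the widest gap of any of the 34.

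JMJD8, a protein of the endoplasmic reticulum, was at 29.6 and 34.2 CPM in sh-Scb and 46.2 and 53.2 CPM in sh-SOX4 (log2 fold change 0.64, adjusted p = 0.000517). STUB1, which shares 37.4% of its exonic bases from the opposite strand, rose too, by 0.43, and without strand the reads from these shared bases cannot be told apart. HSPBAP1, a binding partner of the heat shock protein HSPB1, had a log2 fold change of 0.34 (adjusted p = 0.0244), and JMJD6, a lysine hydroxylase of splicing factors, of 0.22 (adjusted p = 0.0292). Their calls were lost under 6 and 8 of 14 other settings, leaving out sh-Scb replicate 2 or either sh-SOX4 library among them for both. JMJD7, a JmjC-only gene outside the 34 that shares 80.1% of its exonic bases with a readthrough gene, did not pass (log2 fold change 0.62, adjusted p = 0.268). HIF1AN and TYW5, further JmjC hydroxylase genes outside the 34, did not pass either, with log2 fold changes of -0.09 (adjusted p = 0.169) and -0.06 (adjusted p = 0.572). The rise is thus a result for the 7 genes listed. Summed over these 7 genes, the level went from 165 and 169 CPM in the sh-Scb libraries to 265 and 274 CPM in the sh-SOX4 libraries.

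**Figure D3:**
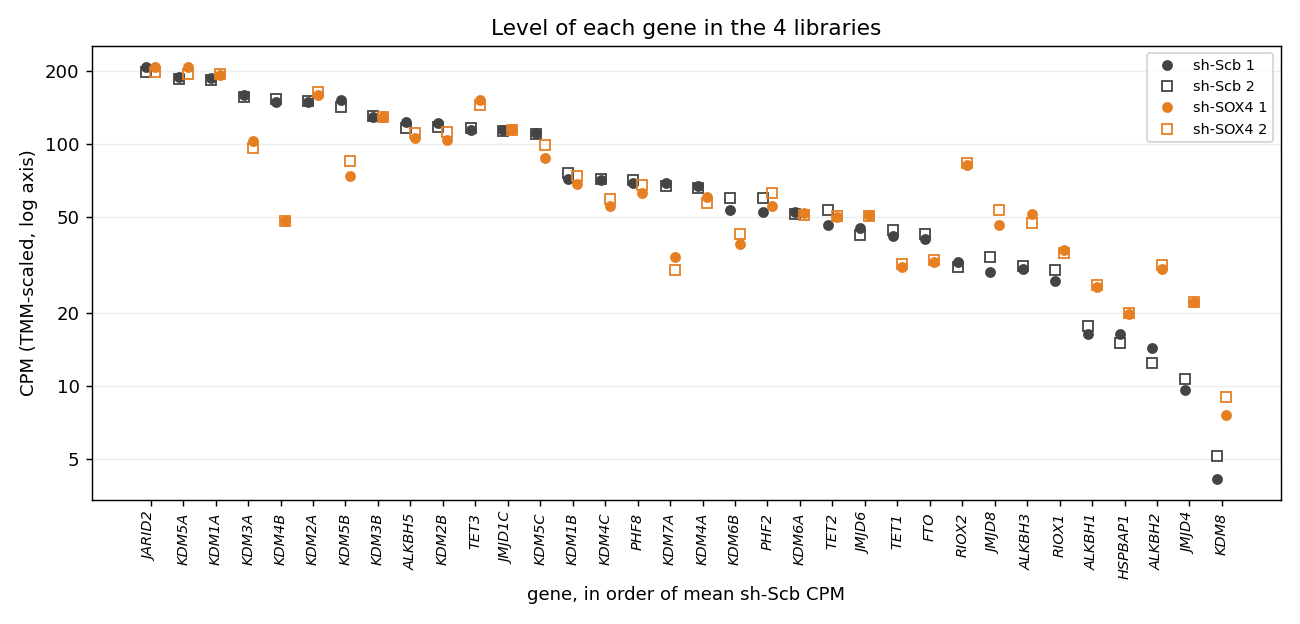
TMM-scaled CPM (vertical log axis) of each of the 34 genes in the 4 libraries, in order of the sh-Scb mean, with grey for sh-Scb, orange for sh-SOX4, filled circles for replicate 1 and open squares for replicate 2. The orange points drop below the grey ones for KDM4B, KDM5B, KDM3A and KDM7A and lie above them for RIOX2, ALKBH2, JMJD4 and KDM8 on the right.

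TET enzymes oxidize 5-methylcytosine, the step that opens active DNA demethylation, and the 3 family members went different ways. TET1 was at 41.8 and 44.3 CPM in sh-Scb and at 31.2 and 31.9 CPM in sh-SOX4, a fall to 73.3% (log2 fold change -0.45, SE 0.079, adjusted p = 0.00114). TET3, the member with the highest level per kilobase of exon, was at 114 and 117 CPM against 152 and 145 CPM, a rise of 0.36 on the log2 scale (SE 0.049, adjusted p = 0.0002). TET2 was at 46.4 and 53.6 CPM and at 49.9 and 50.7 CPM, so that the groups overlapped, with a 95% interval of -0.17 to 0.19. The TET1 and TET3 calls were kept under all 14 other settings. Per kilobase of exon the family sum was 16.6 and 17.5 CPM per kb in sh-Scb, with 18.7 and 18.3 in sh-SOX4, and TET3 made up 55.1% of it in sh-Scb and 65.2% in sh-SOX4.

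Among the 5 AlkB genes of the 34, the 3 enzymes known for repair of alkylated DNA or for tRNA rose, while of the 2 erasers of mRNA methylation FTO fell and ALKBH5 did not pass. ALKBH2 (ENSG00000189046, chromosome 12, 109088188 to 109093631) repairs methylated bases in double-stranded DNA. It was at 14.4 and 12.5 CPM in sh-Scb and at 30.6 and 31.8 CPM in sh-SOX4, a 2.32-fold rise (log2 fold change 1.21, SE 0.11, adjusted p = 1.06e-05). ALKBH3, which repairs single-stranded DNA and RNA, was at 30.4 and 31.3 CPM against 51.4 and 47.3 CPM (log2 fold change 0.68, adjusted p = 7.45e-05). ALKBH1, a tRNA demethylase found in mitochondria among other places, was at 16.4 and 17.8 CPM against 25.6 and 26.2 CPM (log2 fold change 0.60, adjusted p = 0.000729). All 3 were kept under every other setting run.

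FTO, which removes N6-methyladenosine and related cap marks from mRNA, was at 40.5 and 42.4 CPM in sh-Scb and at 32.6 and 33.1 CPM in sh-SOX4. Its fall to 79.3% (adjusted p = 0.00589) was lost in the test against a 1.2-fold change, as was that of KDM4C. ALKBH5, the other demethylase of N6-methyladenosine, had the highest level of the 34 genes per kilobase of exon in sh-Scb, at 37.6 CPM per kb. By the longest transcript it ranked 2. It was at 123 and 117 CPM in sh-Scb and at 106 and 111 CPM in sh-SOX4, and missed the threshold (log2 fold change -0.14, adjusted p = 0.0565). It was called lower under 5 other settings: library totals, the 10 CPM filter, IDs with a symbol only, the correction for GC content and length, and without sh-Scb replicate 2.

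Per kilobase of exon, ALKBH5, KDM1A and JARID2 were the highest of the 34 genes in sh-Scb, at 37.6, 34.1 and 33.9 CPM per kb. Within sh-Scb the libraries of KDM1A (34.4 and 33.8) and JARID2 (34.8 and 32.9) overlapped, so the order of these neighbours is not set beyond their spread. The same 3 genes led in sh-SOX4, at 34.2, 35.5 and 33.7. At the low end were KDM8 at 1.15, FTO at 1.94 and JMJD4 at 2.36 CPM per kb in sh-Scb. KDM4B went from rank 14 to rank 30 between sh-Scb and sh-SOX4, while RIOX2 went from rank 28 to 13 and ALKBH2 from 26 to 10. The order depends on the length chosen. By the longest transcript KDM1A led in sh-Scb at 60.6 CPM per kb, with ALKBH5 at 43.6. On that scale KDM4B went from rank 4 to 25, RIOX2 from 28 to 12 and ALKBH2 from 19 to 5.

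The size of the genes went with the direction of change. Over the 34 genes the log2 fold change and the log2 length of the longest annotated transcript had a Spearman correlation of -0.55, against -0.03 over 18537 tested IDs with an annotated length. The points share the same 4 libraries and the same fit. Length went only partly with family. The longest transcripts of the JmjC-only genes ran from 2205 (JMJD8) to 5517 bases (JMJD6). Those of the AlkB genes ran from 1159 (ALKBH2) to 11766 bases (FTO), and those of the histone demethylase families from 3059 (KDM1A) to 10763 bases (KDM5A). The part of length apart from family was not tested. Of 8 genes with a longest transcript under 3000 bases, 7 rose and ALKBH5 did not pass, where 22.1% of all tested IDs of that length were higher. Of 15 genes with 6000 bases or more, 8 fell and TET3 alone rose, where 32.2% of all tested IDs of that length were lower. The log2 fold change also went down with the sh-Scb level in CPM (Spearman -0.54 over the 34, 0.06 over 19891 tested IDs), and longer genes take more reads. With the trends of GC content and length removed, 14 of the 34 were called higher and 9 lower, and 19 of the 22 calls were kept. All IDs moved the same way under that correction, with 5214 higher and 3772 lower, or 58.0% of calls higher in place of 52.5%.

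**Figure D4:**
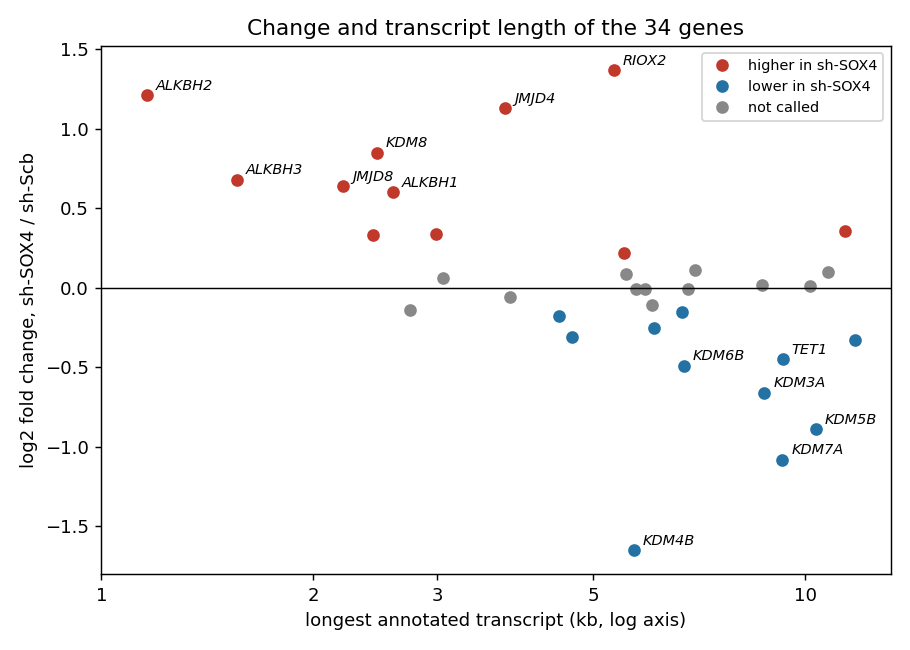
Log2 fold change between sh-SOX4 and sh-Scb (vertical axis) against the length of the longest annotated transcript in kb (horizontal log axis) for each of the 34 genes, coloured by call. Genes with transcripts under 3 kb lie above 0 with the exception of ALKBH5, and TET3 is the 1 gene called higher among those of 6 kb or more.

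Genes that write, read or work beside these marks went both ways, where over all tested IDs 23.2% were called higher and 20.9% lower. Of 27 histone lysine methyltransferase genes, 6 rose, a share near that of all IDs, and 10 fell, with a median log2 fold change of -0.05. KMT5C, which methylates lysine 20 of histone H4, fell by 1.04 (SE 0.096), EZH2, the lysine 27 methyltransferase of PRC2, fell by 0.39 (SE 0.042), and SETD1B, a lysine 4 methyltransferase, fell by 0.64 (SE 0.072). Its relative SETD1A rose by 0.66 (SE 0.072), the lysine 36 methyltransferase NSD1 by 0.52 (SE 0.047) and the lysine 4 methyltransferase KMT2D by 0.31 (SE 0.047). Of 30 tested partner subunits of demethylase complexes, the CoREST genes above among them, 6 rose and 12 fell, and WDR5, a subunit of lysine 4 methyltransferase complexes, rose by 0.33.

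Among 14 genes of DNA methylation and base excision, 6 rose and 3 fell, where 23.2% of all tested IDs were higher and 20.9% lower. The share that fell was near that of all tested IDs. TDG, the glycosylase that removes the bases TET enzymes oxidize, rose from 94.2 ± 4.55 to 157 ± 4.74 CPM (SD, n = 2). MBD3, a subunit of the NuRD complex, rose by 0.93 (SE 0.066) and UHRF1, a partner of the maintenance methyltransferase, by 0.41 (SE 0.050). DNMT3B, a de novo DNA methyltransferase, fell from 60.9 ± 2.52 to 37.9 ± 2.46 CPM (SD, n = 2). CXXC5 and CXXC4, which carry CXXC domains like those of TET1 and TET3, fell by 1.34 (SE 0.21) and 0.89 (SE 0.22) from levels of 5.49 and 4.50 CPM.

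Of 25 tested genes for other 2-oxoglutarate oxygenases, 7 rose and 6 fell, shares near the 23.2% and 20.9% of all tested IDs. P4HA1, a collagen prolyl hydroxylase subunit, fell from 308 ± 9.55 to 45.6 ± 2.19 CPM (SD, n = 2), a larger fall than that of any of the 34 genes. EGLN1, the main hydroxylase of hypoxia-inducible factors, fell by 0.74 (SE 0.059) and P3H1, a collagen prolyl 3-hydroxylase, fell by 0.38 (SE 0.059). ALKBH8, a tRNA-modifying member of the AlkB family, rose by 0.89 (SE 0.087), OGFOD1, a prolyl hydroxylase of ribosomal protein RPS23, by 0.57 (SE 0.060) and ALKBH4, which shares 25.3% of its exonic bases with ORAI2 on the opposite strand, by 0.53 (SE 0.13). For the genes of these lists described as risen or fallen, HR apart, edgeR's adjusted p ran from 3.73e-09 for P4HA1 to 0.0075 for CXXC4.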

How the data were processed

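The authors deposited raw counts per Ensembl gene ID, 1 column for each library, per the file headers. Libraries were made from total RNA with a TruSeq RNA kit, per the labels' protocols. HISAT2 2.2.0, StringTie and the build hg38 appear in the submitters' processing notes. What each was used for, the annotation release and any use of strand were not stated. The control columns carry the name NC and were taken as sh-Scb, since the other columns name SOX4. Symbols, coordinates, lengths and overlaps came from the reference name table and GENCODE release 29 on GRCh38.

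In R 4.3.3, IDs passing edgeR's filterByExpr (version 4.0.16, with a minimum count of 10 and a total of at least 15) were TMM-scaled, and a robust quasi-likelihood model was fitted by group, with Benjamini-Hochberg adjustment over 19897 IDs. The SE is the log2 fold change divided by the square root of F, and 95% intervals use the model's degrees of freedom. Whether the libraries of a group are separate cultures is not stated. The p-values therefore reflect only how far these samples spread, which may be technical. Within each group the libraries differed beyond sampling noise (median chi-square per gene 1.7 and 1.59, against 0.455), so none was treated as a duplicate.

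All 34 genes are named. From each other list the 3 rises and 3 falls with the smallest adjusted p are named, and further genes were chosen after their values were seen. The members and lists were chosen with earlier results of these data known. One of the marker lists is not reported here. The pipeline was tested on simulated counts. Alternatives were median-ratio factors, library totals, other filters, a replicate block, DESeq2 1.42.0, limma-voom (limma 3.58.1), each library left out, a test against 1.2-fold, IDs with a symbol only and, chosen after seeing the data, a correction for GC content and length.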

Additional observations from a re-analysis of the deposited data

How the results depend on the processing

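Of the 22 calls among the 34 genes, 14 were kept under every alternative that tested them, 8 higher and 6 lower. KDM8 was not tested with the 10 CPM filter. The others were FTO, KDM4C, KDM5C, RIOX1, HSPBAP1, JMJD6, KDM4A and KDM2B. Over all IDs and over the 34 genes, counts moved by over 1.5 times only in the test against a 1.2-fold change, which asks for larger effects: 2757 IDs higher and 2591 lower against 4609 and 4166, and 6 of the 34 genes lower against 11. By family, the 7 JmjC-only genes called higher became 4 with library totals and in the test against 1.2-fold. Of the 19 histone demethylase genes, 5 in place of 9 were lower in the test against 1.2-fold. After the correction for GC content and length 3 in place of 0 were higher, where 58.0% of the calls over all IDs were higher. Among all IDs, 3629 were higher and 5260 lower with library totals, or 40.8% of calls higher in place of 52.5%, and the median log2 fold change was -0.109 in place of -0.01. The median level of the 34 genes in sh-Scb was 12.4 CPM per kb by longest transcript, in place of 9.10 by all exons. The same-numbered libraries of the groups did not deviate together (correlation -0.029). This value cannot show whether they share a culture or a batch. With the replicate block, 4422 IDs were higher and 3956 lower, KDM2B was lost, and SOX4 had a log2 fold change of -0.49 (adjusted p = 5.9e-05).

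Signs turned for KDM2B after the correction for GC content and length, to 0.029, and otherwise for genes that did not pass. That correction gave 0.072 for JARID2, 0.09 for KDM3B, 0.022 for KDM6A and 0.005 for PHF8. Library totals gave -0.083 for JMJD1C, -0.039 for KDM1A, -0.013 for PHF2 and -0.089 for TET2, and the 10 CPM filter -0.048 for JMJD1C, -0.004 for KDM1A and -0.053 for TET2. Leaving out 1 library in turn gave -0.052 to 0.038 for JARID2, -0.031 to 0.004 for KDM6A, -0.006 to 0.18 for PHF2 and -0.089 to 0.11 for TET2, each turned without sh-Scb replicate 1 and without sh-SOX4 replicate 2, and -0.11 to 0.003 for KDM1B, turned without sh-SOX4 replicate 1. The cause was not tested.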

Other observations

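Enzymes that make or use 2-oxoglutarate and its competitors, the metabolites on which most of the 34 genes' products depend, were mostly higher in sh-SOX4: 13 of 24 genes rose and 5 fell, with a median log2 fold change of 0.24, against 23.2% and 20.9% of all tested IDs. BCAT1, a branched-chain aminotransferase that consumes 2-oxoglutarate, rose from 83.8 ± 1.84 to 171 ± 5.66 CPM (SD, n = 2). PSAT1, a transaminase of serine synthesis that yields 2-oxoglutarate, rose by 0.71 (SE 0.043) and GOT2, the mitochondrial aspartate aminotransferase, by 0.55 (SE 0.045) on the log2 scale. SDHA, a subunit of succinate dehydrogenase, fell by 0.41 (SE 0.052), DLST, a subunit of 2-oxoglutarate dehydrogenase, fell by 0.32 (SE 0.052) and IDH2, the mitochondrial isocitrate dehydrogenase that makes 2-oxoglutarate, fell by 0.24 (SE 0.044). Metabolites were not measured.

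Writers and readers of N6-methyladenosine, the mark that FTO and ALKBH5 remove, went both ways, with 4 of 16 genes higher and 3 lower, shares near the 23.2% and 20.9% of all tested IDs. METTL16, a methyltransferase of U6 RNA, rose by 0.61 (SE 0.059), YTHDC1, a nuclear reader, by 0.32 (SE 0.056) and WTAP, a subunit of the writer complex, by 0.23 (SE 0.046). RBM15, another subunit of that complex, fell by 0.58 (SE 0.058), and the readers IGF2BP1 and IGF2BP2 fell by 0.45 (SE 0.061) and 1.60 (SE 0.24), the latter from 4.71 ± 0.379 to 1.55 ± 0.23 CPM (SD, n = 2). METTL3, the catalytic subunit, had a log2 fold change of 0.10 with a 95% interval of -0.07 to 0.27.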
